A study of Mus musculus with 2 samples.

Results

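The 10 genes described here move iron into the cell, store it, release it and send it out: Tfrc, Slc11a2 and Steap3 for uptake, Fth1, Ftl1 and Ncoa4 for storage, Slc40a1 for export, Ireb2 and Aco1 as iron-sensing regulators, and Hmox1, which frees iron from haem. They were chosen by name, and every probe set whose only annotated gene was 1 of them was taken. That gave 24 probe sets of 9 genes, out of 45101 probe sets on the array and 18195 annotated genes. Ftl1, the ferritin light chain, has no such probe set, because the 3 probe sets that list it also list a pseudogene, and its level is not given here.

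RNA came from washed platelets of C57BL/6 mice of either of 2 genotypes. Smad4 f/f mice carry Smad4 flanked by loxP sites and served as controls. In Smad4 −/− mice the floxed gene was crossed to a Cre recombinase under the PF4 promoter, which acts in megakaryocytes and platelets, so the deletion was directed to that lineage. Each genotype had 6 mice but 1 array. Pooling of the RNA, the age of the mice and the Cre status of the controls are unknown here. The comparison asks which platelet transcripts differ when Smad4, which joins the receptor-activated SMAD proteins of the TGF-beta and BMP pathways, is removed. With 1 array per genotype there is no replicate error and no test, and every difference is one between 2 arrays, whose number sets the limit on precision. The 3 Smad4 probe sets themselves differed by log2 ratios of −0.09 to −0.13, and their place relative to the deleted part was not analysed here.

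As background, iron bound to transferrin enters a cell through the transferrin receptor, is reduced in the endosome by STEAP3 and leaves it through the transporter DMT1, the product of Slc11a2. Iron that is not used is held in ferritin, a shell of heavy and light chains, and NCOA4 carries ferritin to the lysosome when iron is needed again. Ferroportin, the product of Slc40a1, is the exporter, and the iron regulatory proteins IRP1 (from Aco1) and IRP2 (from Ireb2) bind stem-loops called iron-responsive elements, stabilising Tfrc mRNA and blocking the translation of ferritin mRNA when iron is low. Control of ferritin by these proteins therefore acts on translation, which mRNA levels do not show. SMAD signalling is best known in iron biology from the liver, where BMP signals drive the iron hormone hepcidin. Platelets have no nucleus and carry mRNA made in the megakaryocyte.

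Levels are the deposited log2 signals or their antilogs, called signals. The 60th percentile was taken on each array and the higher of the pair, a log2 signal of 7.18 or a signal of 145, served as a floor. A probe set that reached the floor on either array is called measured. Ratios divide the Smad4 −/− value by the control value, are given as log2 and were taken after raising values to the floor, and a ratio with 1 side below the floor is a bound. Of the 24 probe sets 13 were measured, covering 8 of the 10 genes, and 11 lay below the floor on both arrays. A gene takes the value of its strongest probe set, with probe sets ending in _x_at used only where there is no other.

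No measured iron gene passed 2-fold between the genotypes on floored values, although for Aco1 the ratio is only a bound, and Steap3 and Ftl1 have no ratio. Of the 8 measured genes, 0 were past that size in either direction, while among all 11089 measured genes 3.42% were higher and 3.58% lower by the same rule. Of 13 measured probe sets, 0 passed in either direction, against 3.35% higher and 3.50% lower among all 18099. With backgrounds this low, a count of 0 among 8 genes does not set these genes apart. At 1.5-fold, 1 of the 8 genes (Tfrc) and 2 of the 13 probe sets (of Tfrc and Slc40a1) passed, against 25.1% of all genes and 24.9% of all probe sets. The ratios ran from −0.61 for Tfrc to 0.56 for Ireb2, with 3 genes above 0 and 5 below, and their median was −0.04 beside −0.02 over all measured genes.

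**Figure D1:**
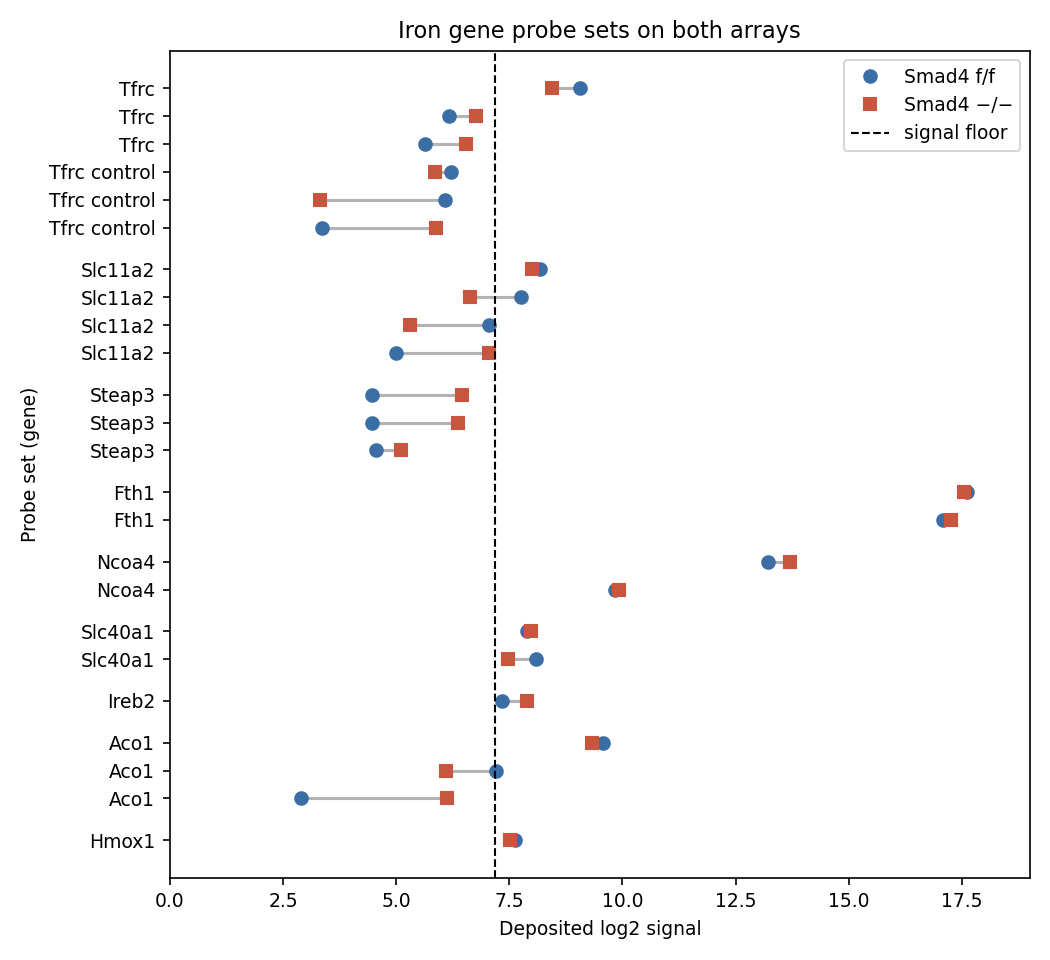
Deposited log2 signal (horizontal axis) of the 24 probe sets of the iron genes, grouped by gene; circles are the Smad4 f/f array, squares the Smad4 −/− array, and the dashed line is the floor at 7.18. The 2 Fth1 probe sets lie at 17.1 to 17.6 on both arrays, and 11 probe sets, among them all 3 of Steap3, lie left of the floor on both.

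Ferritin heavy chain mRNA gave very bright and nearly equal signals on both arrays. Fth1 encodes the chain that oxidises iron as it enters the ferritin shell. Its probe set 1448771_a_at read 199038 on the control array and 191298 on the Smad4 −/− array, a log2 ratio of −0.06. The other, 1427021_s_at, read 138880 and 157414, a log2 ratio of 0.18. The probe sets thus differ in sign, and under median centring of the arrays the first one also turned to 0.04. The suffix _s_at marks probes that can match transcripts of several genes, so how much of that signal is Fth1 is uncertain. The highest log2 signals of any probe set on the arrays were 17.85 and 17.90, close to these values.

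Ncoa4, whose protein delivers ferritin to the lysosome for iron release, was brighter in Smad4 −/− by its strongest probe set. That probe set, 1420808_at, read 9541 in controls and 13386 in Smad4 −/− platelets, which is 1.40-fold higher, a log2 ratio of 0.49. The second, 1450006_at, read 915 and 971, a log2 ratio of 0.09. Both pointed the same way but differed by 0.40, and the mean over both was 0.29. As a yardstick, the log2 ratios of different measured probe sets of 1 gene had a pooled SD of 0.48 over 4252 genes. This spread leaves out shifts shared by all probe sets of a gene, so it does not measure variation between mice or between repeat arrays. Of all measured genes 33.2% lay at least as far from 0 as the 0.49 of Ncoa4.

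The transferrin receptor gene Tfrc was lower in Smad4 −/−. Its single measured probe set, 1452661_at, read 532 in controls and 350 in Smad4 −/− platelets, which is 1.52-fold lower, a log2 ratio of −0.61. This was the lowest gene value among the iron genes, and 23.4% of all measured genes lay at least as far from 0. The other 5 Tfrc probe sets stayed below the floor on both arrays and give no ratio. The pair 1422967_a_at and 1422966_a_at read 72.0 and 50.1 in controls, then 109 and 93.1 in Smad4 −/− platelets, so below the floor both were brighter in Smad4 −/−. The remaining 3 are the array's own transferrin receptor controls for the 5' end, middle and 3' end of the message, with signals of 67.4, 10.3 and 73.9 in Smad4 f/f and 9.94, 59.3 and 57.6 in Smad4 −/−.

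Slc11a2, the gene of the transporter DMT1, was lower in Smad4 −/− by both measured probe sets, to differing extents. Probe set 1417584_at read 290 in controls and 257 in Smad4 −/− platelets, a log2 ratio of −0.18. Probe set 1452078_a_at read 218 in controls and 98.8, below the floor, in Smad4 −/− platelets, so its log2 ratio of −0.58 is a bound, and without a floor the ratio is −1.14. The other 2 probe sets were below the floor on both arrays and went opposite ways, 133 and 39.8 for 1441709_at and 31.9 and 133 for 1426441_at. Steap3, the endosomal iron reductase, lay below the floor throughout, with signals of 22.0 to 23.6 in Smad4 f/f and of 34.2 to 87.1 in Smad4 −/− over its 3 probe sets, so no ratio is given.

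The 2 probe sets of Slc40a1, the gene of the iron exporter ferroportin, disagreed. Probe set 1417061_at read 238 in controls and 250 in Smad4 −/− platelets, a log2 ratio of 0.07, while 1448566_at read 272 and 176, 1.54-fold lower. On floored values the gap of 0.70 between them was the widest of any iron gene with several measured probe sets. For Slc11a2 and Aco1 the gap includes a bound, and without a floor both gaps are wider than that of Slc40a1. The mean of the 2 Slc40a1 probe sets was −0.28, opposite in sign to the value of the stronger one. No direction can therefore be given for Slc40a1.

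Of the genes of the iron regulatory proteins, Ireb2 read higher in Smad4 −/−, while the gene value of Aco1 was a bound of only −0.03. Ireb2, which encodes IRP2, has 1 probe set, and it read 162 in controls and 238 in Smad4 −/− platelets, which is 1.47-fold higher, a log2 ratio of 0.56. The Smad4 f/f value is just above the floor of 145. Of all measured genes 27.2% lay at least as far from 0. Aco1, which encodes the cytosolic aconitase that becomes IRP1 when it loses its iron-sulphur cluster, read 762 and 639 by its brightest probe set, 1456728_x_at, a log2 ratio of −0.25. The suffix _x_at marks probes that may bind other transcripts, so the gene took its value from 1423644_at, which read 148 and 68.7. There the Smad4 −/− side is below the floor and the bound is only −0.03, but without a floor the ratio is −1.11. The third Aco1 probe set (7.44 and 69.3) never reached the floor.

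Hmox1, the inducible haem oxygenase that opens the haem ring and releases its iron, was nearly level. Its single probe set read 197 in controls and 182 in Smad4 −/− platelets, a log2 ratio of −0.11. Of all measured genes 80.8% lay at least as far from 0.

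**Figure D2:**
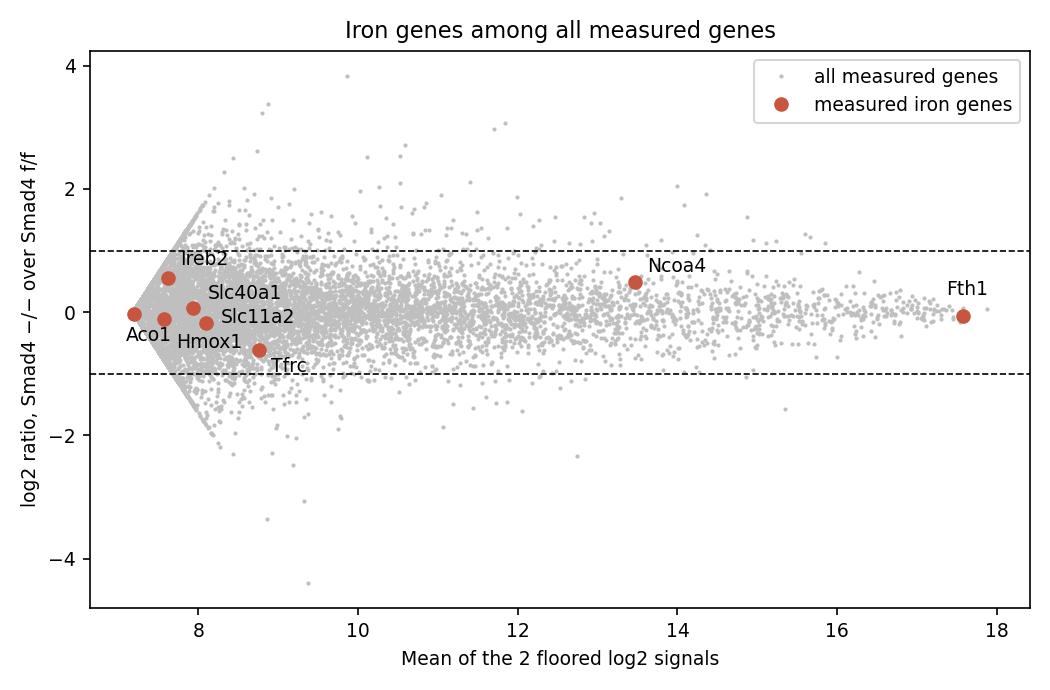
Each point is a measured gene, with the mean of its floored log2 signals on the horizontal axis and its log2 ratio, Smad4 −/− over Smad4 f/f, on the vertical axis; dashed lines mark 2-fold. The 8 measured iron genes (large points) lie between −0.61 and 0.56, inside the lines. The point of Aco1 is a bound, drawn like the rest, and without a floor its ratio is −1.11. The wedge at the left edge is made by the floor.

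The spread of ratios depends on brightness, which bears on how each gene can be read. Over all measured genes the SD of the log2 ratio was 0.55 where the mean log2 signal was below 8, the range of Slc40a1, Ireb2, Aco1 and Hmox1. From 8 to 10, the range of Tfrc and Slc11a2, it was 0.60. It was 0.38 above 13, where Fth1 and Ncoa4 lie. On floored values, only Ncoa4 (0.49), Ireb2 (0.56) and Tfrc (−0.61) were farther from 0 than the SD of genes in their range. The last 2 exceeded it by only 0.01. The ratio of Aco1 (−0.03) is a bound and cannot be placed against that SD, and without a floor it is −1.11. Of the 5 genes with several measured probe sets, Fth1 and Slc40a1 had probe sets of opposite sign.

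Promoter sequences of Fth1, Ncoa4 and Tfrc are shown because these genes carry the storage, release and uptake values above and because the deleted factor belongs to the SMAD family, whose DNA-binding members recognise the short sequence CAGAC. The 150 bases before an annotated start are printed 5′ to 3′ on the strand of the gene, from RefSeq on GRCm38.p6, at chr19:9982496-9982645 (plus strand) for Fth1, chr14:32159737-32159886 (plus strand) for Ncoa4 and chr16:32608746-32608895 (plus strand) for Tfrc. Capitals mark CAGAC and CCAAT on either strand. Ncoa4 was put in place of Ireb2, and the windows and capitals were settled, after the matches had been seen, so the matches printed do not represent all 10 genes.
Fth1: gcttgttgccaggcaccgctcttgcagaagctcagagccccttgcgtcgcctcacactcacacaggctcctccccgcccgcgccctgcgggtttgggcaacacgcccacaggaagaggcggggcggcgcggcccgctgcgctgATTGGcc
Ncoa4: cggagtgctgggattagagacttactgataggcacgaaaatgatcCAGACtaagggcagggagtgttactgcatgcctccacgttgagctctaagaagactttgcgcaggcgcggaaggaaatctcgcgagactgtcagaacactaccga
Tfrc: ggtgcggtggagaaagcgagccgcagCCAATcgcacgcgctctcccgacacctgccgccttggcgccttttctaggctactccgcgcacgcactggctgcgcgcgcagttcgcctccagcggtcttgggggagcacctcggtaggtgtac
The promoter table holds 14 windows for 7 of the 10 genes, and the 250 bases before each start were searched on both strands. The search covered 5 motifs. CAGAC occurred in 5 of the 14 windows, of Aco1, Ncoa4 and Steap3, and in 42.2% of all 32851 windows. The common promoter element CCAAT occurred in 4 of 14, of Fth1, Ftl1, Steap3 and Tfrc, against 33.8%. TGANNNNGC, which is a loose form of the element that NRF2 and BACH1 bind, occurred in 4 windows, of Aco1, Ncoa4 and Steap3, against 35.2%. The TATA box motif TATAA occurred in 3, of Fth1, Ncoa4 and Tfrc, against 22.8%. AGATAA, which GATA factors recognise, occurred in 1, of Steap3, against 9.99%. Windows of a gene can overlap, and the motifs can overlap each other. A match is a run of letters and not a binding site. Slc11a2, Slc40a1 and Hmox1 had no window and were not searched.

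Other genes of iron and haem handling can be set beside these 10. Of 114 such genes in the lists used, 73 were measured, of which 6 (8.22%) passed 2-fold upwards in Smad4 −/− and 4 (5.48%) downwards, beside 3.42% and 3.58% of all measured genes. Their median log2 ratio was 0.00024, with 37 above 0 and 36 below. Averaging the probe sets within each gene left 4 upwards and 2 downwards. The lists were drawn up with earlier results of these data known, so these shares cannot show an excess over all measured genes.

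The highest ratios of these genes were those of Slc25a37 and Fech, in mitochondrial iron import and haem synthesis, and the lowest were those of Pcbp3, a bound, and Urod. Haem is built from glycine to protoporphyrin by a chain of enzymes, and ferrochelatase inserts iron in the last step. Of 14 measured genes of mitochondrial iron and iron-sulphur clusters, 1 was at least 2-fold higher: Slc25a37, the iron importer mitoferrin-1, read 526 in controls and 2051 in Smad4 −/− platelets (3.90-fold higher). The median of that list was 0.31, and 10 of the 14 genes were above 0. Of 8 measured haem synthesis genes, 2 were higher and 2 lower, with a median of −0.35.

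Within haem synthesis, Alas2 and Fech, genes of the first and last enzymes, were higher and 2 genes of middle steps lower. Fech, the ferrochelatase gene, read 4551 and 13904, 3.06-fold higher, and its 3 measured probe sets gave log2 ratios of 1.33 to 1.90. Alas2, the red cell form of the first enzyme, read 1413 and 3387, 2.40-fold higher, by 1 probe set. Alas1, the other gene of the first enzyme, has no gene value because its strongest probe set lay below the floor; its second, which ends in _x_at, read 263 and 55.9, a bound of −0.86. Uros, the fourth enzyme of the chain, read 615 and 279, 2.21-fold lower, by 1 measured probe set. Urod, the next enzyme, read 359 and 155, 2.31-fold lower, but its brighter probe set, which ends in _x_at, gave a log2 ratio of 0.52 and the mean of both was −0.35. Tmem14c, which imports protoporphyrinogen into mitochondria and was named after its value was seen, read 7077 and 3654, a log2 ratio of −0.95.

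**Figure D3:**
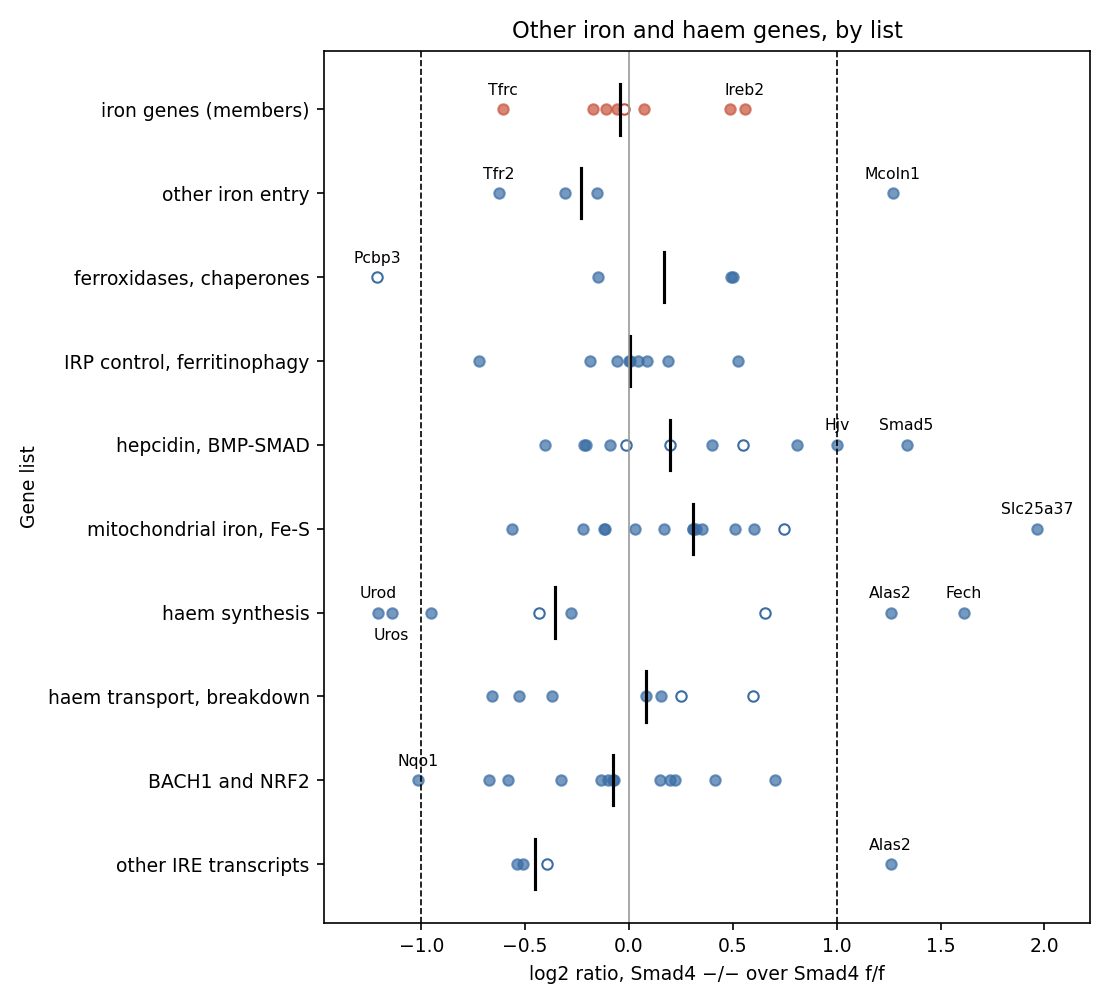
Log2 ratio, Smad4 −/− over Smad4 f/f, of each measured gene in the iron gene set (top row) and in 9 lists of related genes; open circles are bounds with 1 array below the floor, black bars are list medians and dashed lines mark 2-fold. The iron genes stay between the dashed lines, and the haem synthesis list spreads from Urod at −1.21 to Fech at 1.61.

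In the list of other routes of iron entry, 1 of 4 measured genes was at least 2-fold higher and 0 lower. Mcoln1, a lysosomal cation channel, was 2.41-fold higher when read from the strongest probe set, but the other measured one gave −0.69 and the mean was 0.29. Tfr2, the second transferrin receptor and a sensor of iron in the liver and red cell precursors, was named after its value was seen. It read 292 in controls and 189 in Smad4 −/− platelets, and its probe sets gave −0.63 and −0.49, so both receptor genes for transferrin read lower, by less than 2-fold each. With the floor at the 75th percentile Tfr2 shrank to −0.17.

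Of 4 measured ferroxidase and iron chaperone genes, 1 was lower: Pcbp3, a relative of the iron chaperones PCBP1 and PCBP2, was at least 2.32-fold lower, while its other probe set gave −0.67 and the mean was −0.94, short of 2-fold. None of the 9 measured genes that control IRP proteins or carry ferritin to autophagy passed 2-fold, and Skp1a and Gabarapl2 had log2 ratios of 0.0036 and −0.06. In the list of hepcidin and BMP-SMAD iron control, 2 of 11 measured genes were higher and 0 lower. Hjv, which encodes the BMP co-receptor hemojuvelin, read 507 and 1016, 2.00-fold higher, with a log2 ratio of 1.30 by its other probe set and no call under quantile normalisation, and Smad5 was 2.53-fold higher with a mean of 0.73 over 3 probe sets.

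None of the 7 measured genes of haem transport and breakdown passed 2-fold, with Blvrb, a biliverdin reductase, at −0.66 and the haem-binding protein gene Pgrmc1 at −0.53. Among 13 measured genes of the BACH1 and NRF2 system, which controls Hmox1 and the ferritin genes, 1 was lower: Nqo1, a quinone reductase, read 666 and 330, 2.02-fold lower, a call that ended under median centring (−0.92), quantile normalisation (−0.99) and loess (−0.99). Of 4 other measured transcripts known to carry an iron-responsive element, Alas2 was higher and 3 were below 0, with a median of −0.45.

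Most measured markers of red cells and their precursors were also brighter on the Smad4 −/− array. These cells make haem and carry Tfrc at high levels while immature. Of 22 erythroid markers 13 were measured. At least 2-fold higher were 4 (30.8%) and lower 0, beside 3.42% and 3.58% of all measured genes. As the marker lists were chosen with earlier results of these data known, these shares cannot show an excess over all measured genes. The 13 markers had a median of 0.60, beside −0.02 over all measured genes. Their signals summed to 7866 on the control array and 14889 on the Smad4 −/− array, and without Bpgm, which gave 4754 of that difference of 7023, to 4985 and 7254. Bpgm, which makes 2,3-bisphosphoglycerate in red cells, was 2.65-fold higher, Car2, a carbonic anhydrase, 2.40-fold, Slc4a1, the band 3 anion exchanger, 2.36-fold, and Trim10 at least 2.32-fold. Klf1 and Rhd were among the 3 below 0. Epb42 took no gene value, since the probe set chosen for it (59.5 and 87.1) stayed below the floor. Its other probe set read 14.0 in controls and 235 in Smad4 −/− platelets, a bound of 0.70. The markers Rhag and Kel lay below the floor on both arrays. So did the only probe set annotated to the alpha-globin gene Hba-a1 alone, with signals of 102 and 28.7, while the 3 that list it with other genes were not used. Tfrc, by its 1 measured probe set, and Tfr2 read lower, and Slc25a37, Fech, Alas2 and 10 of the 13 measured erythroid markers read higher. Of the 8 measured haem synthesis genes, however, only 3 were above 0. The other 5 were below it, among them Uros, Urod and Tmem14c. Tfr2 and Tmem14c were named after their values were seen. The part of red cell RNA in any of these values was not tested. In bulk RNA, a change in the number of cells of a type and a change in RNA per cell cannot be told apart.

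**Figure D4:**
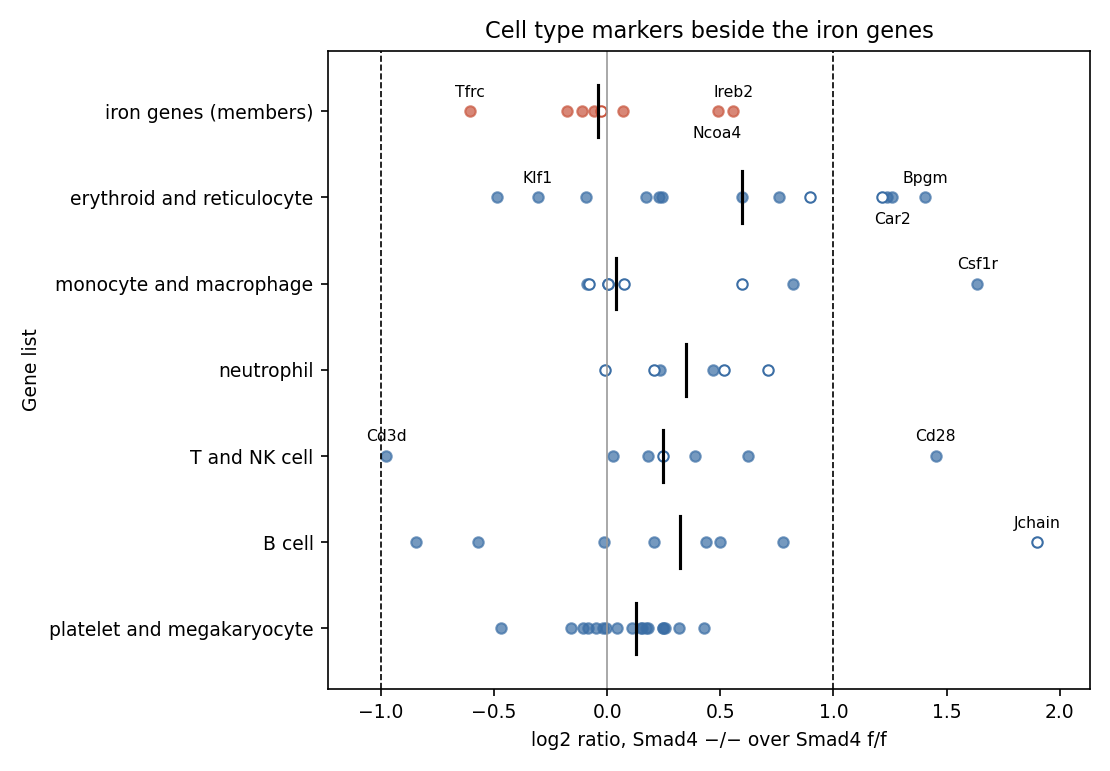
Log2 ratio, Smad4 −/− over Smad4 f/f, of each measured gene in the iron gene set (top row) and in 6 lists of cell type markers, drawn with open circles for bounds, black bars for medians and dashed lines at 2-fold. The median of the erythroid markers is 0.60 and that of the platelet markers 0.13.

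Markers of other cells can be read beside Hmox1 and Slc40a1, which macrophages use to recycle iron from red cells. Of 18 monocyte and macrophage markers 8 were measured, with a median of 0.04 and summed signals of 140671 and 132919, nearly all from Lyz2 (948 and 1660 without it). Csf1r, read from the strongest probe set, was 3.11-fold higher with a mean of 0.28 over 3, while C1qa, C1qb, C1qc, Marco, Spic, Mrc1 and Timd4 lay below the floor on both arrays. Neutrophil markers had a median of 0.35 over 6 measured of 12 and summed signals of 5940 and 7784, with S100a8 at 0.23 and S100a9 at 0.47, and Mpo, Elane, Camp and Mmp8 below the floor. For T and NK cells the median was 0.25 over 7 of 14 markers, and summed signals of 7478 and 15994, led by Cd28 at 1.45, with Cd3e, Cd3g and Cd4 below the floor. Without Cd28 the other 6 T and NK cell genes summed to 2793 and 3168, and Cd3d, the only measured CD3 gene, was lower at −0.98. B cell markers had a median of 0.32 over 8 of 10 and summed signals of 4858 and 5577, with Jchain at least 3.73-fold higher. The platelet label was met: 18 of 20 platelet and megakaryocyte markers were measured, and 0 gene values passed 2-fold, with 11 above 0 and 7 below. The brightest, Clec1b and Rgs18, had log2 ratios of −0.08 and −0.16. Selp had a gene value of −0.47, but the lowest of its 3 ratios was −1.04, past 2-fold, and the 3 averaged −0.82.

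Signs of RNA quality differed between the arrays as well. Gapdh control probe sets had a 3' signal 1.86 times the 5' one on the control array and 2.61 times on the other. The beta-actin controls gave 1.16 and 1.27. The part of this difference in the ratios of the iron genes was not tested.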

How the data were processed

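The deposited table holds log2 signals, 1 per probe set and array, as made by the authors. The submitters' processing notes name MAS5 without a version. Each array's antilogs average 500.01 once 2% is trimmed from either end, so the arrays share a scale. Of 34958 probe sets with 1 gene symbol, the members were taken by symbol from the platform annotation, which can be old. Symbols of the other lists were matched through Entrez gene IDs and a RefSeq table of GRCm38.p6, and all 114 related genes matched. Values were floored and summarised as described above with Python 3.11.15, numpy 2.4.6 and pandas 2.3.3, and no test was run. The steps were tested on simulated data. The planted changes were larger than the ratio of any measured iron gene and lay in genes well above the floor. The simulation therefore does not cover small ratios of the dim iron genes. All members were named, and in each other list up to 4 genes past 2-fold with the largest ratios, or the 2 brightest where none passed. The members and lists were chosen with earlier results of these data known. Alternatives were other scalings, floors, probe set rules and fold thresholds. Detection calls were not used here.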

Additional observations from a re-analysis of the deposited data

How the results depend on the processing

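Across the scalings, floors and probe set rules tried, the count of iron genes at least 2-fold higher stayed at 0. The count at least 2-fold lower became 1 with no floor (Aco1, −1.11) and 1 at 1.5-fold (Tfrc). That of iron probe sets became 1 with the floor at the 50th percentile, 2 with no floor and 2 at 1.5-fold. Among all measured genes, 7.00% passed in either direction at the settings used above and 10.9% with the floor at the 50th percentile. That share was 21.9% with no floor and 25.1% at 1.5-fold. With the floor at the 75th percentile 4 iron genes were measured. Tfrc ranged from −0.61 to −0.51, Ncoa4 from 0.29 to 0.58 and Ireb2 from 0.56 to 0.65, and the median of the iron genes from −0.12 to 0.01. Related genes at least 2-fold higher numbered 12 at 1.5-fold, 2 at 3-fold, 11 with no floor and 4 with the mean of a gene's probe sets. Those lower numbered 9 at 1.5-fold, 0 at 3-fold, 2 under the floor at the 75th percentile and 2 with that mean. The shares of all measured genes past the threshold in either direction were 0.93% at 3-fold, 4.40% under the higher floor and 5.14% with that mean. Ratios of dim or single-sided genes shrank under the floor at the 75th percentile, Pcbp3 to −0.37, Trim10 to 0.37, Urod to −0.47, Tfr2 to −0.17, Csf1r to 0.99, Jchain to 1.06 and the lower Slc40a1 probe set to −0.06. Urod reversed to 0.52 where probe sets ending in _x_at were allowed, an alternative chosen after seeing the data, since its brighter probe set has that suffix. No floor and a lower floor let in differences between dim signals, whose spread cannot be measured without replicates. No paired analysis was possible because each genotype has 1 array.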
